A study of Mus musculus with 10 samples.

Results

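The 37 genes described here encode the autophagy machinery (23 genes), the lysosome (12 genes) and a pair of transcription factors, Tfeb and Tfe3, that act on both. They were listed by name from textbook roles in these pathways, and all 37 of 37 were found among the 30295 gene rows of the deposited tables. All 37 also passed the filter on low counts that left 15839 genes for testing. The study sorted epithelial stem cells from the mouse intestine by flow cytometry and sequenced their mRNA after SMART-Seq v4 amplification, to ask how calorie restriction acts on active and on reserve stem cells. Active cells came from C57Bl/6 mice carrying Lgr5-EGFP-IRES-CreER, in which the Lgr5 locus drives EGFP, and reserve cells from C57Bl/6 mice carrying Hopx-CreER::LSL-tdTomato, in which a Hopx-driven, inducible Cre recombinase switches on tdTomato. Mice were fed ad libitum (AL) or were calorie restricted (CR), which gave 3 Lgr5 AL, 3 Lgr5 CR, 2 Hopx AL and 2 Hopx CR libraries from 10 animals. Each of 5 isolations supplied 1 AL and 1 CR library: isolations 1, 2 and 3 were of Lgr5 cells and isolations 4 and 5 of Hopx cells, so that population and isolation cannot be told apart. The ages of the mice, the degree and length of the restriction and the induction of the Hopx allele were not given in the sources used here.

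In autophagy, a kinase complex built on ULK1 and a lipid kinase complex built on PIK3C3 and Beclin 1 start a membrane, which grows while a pair of ubiquitin-like conjugation reactions attach LC3 and GABARAP proteins to it. Cargo receptors such as p62 bind both the cargo and those proteins, and the closed vesicle fuses with a lysosome, where acid hydrolases digest its content. In fed cells mTORC1 holds back the ULK1 complex and keeps TFEB and TFE3 out of the nucleus, and in the intestine autophagy is known for its part in Paneth cell secretion and stem cell maintenance. Much of this control acts on proteins, and the values here are of mRNA.

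TFEB and TFE3 bind a short E-box, CACGTG, and favour the extended form TCACGTGA. Promoter sequences from RefSeq (build GRCm38.p6, 250 bases before to 50 after the annotated start) were matched to 28 of the 37 genes. CACGTG, which reads the same on both strands, was found in 11 of the 28 (39.3%) against 8.09% of all 27025 genes with a promoter. TCACGTGA, which contains CACGTG, was found in 5 of the 28 (17.9%: Atg3, Atp6v0d1, Ctsa, Ctsd and Mcoln1) against 1.13% of all genes, and the full palindromic CLEAR element, which extends it by a G before and a C after, in 0 of the 28 against 0.37%. A match describes letters in this window and not a bound site. In 4 of the 37 genes (10.8%) the CR library was higher in each of the 5 isolations, beside 8.74% of all genes tested. The promoters printed here are those of 3 of these 4, Lamp1, Ctsd and Sqstm1, and of Mcoln1, which had the smallest p of the 37 for diet over the 5 isolations. They are written 5′ to 3′ on the gene's strand, with TCACGTGA, or CACGTG where the longer form is absent, in capitals.
Lamp1 (lysosomal membrane protein), chr8:13158911-13159210, plus strand: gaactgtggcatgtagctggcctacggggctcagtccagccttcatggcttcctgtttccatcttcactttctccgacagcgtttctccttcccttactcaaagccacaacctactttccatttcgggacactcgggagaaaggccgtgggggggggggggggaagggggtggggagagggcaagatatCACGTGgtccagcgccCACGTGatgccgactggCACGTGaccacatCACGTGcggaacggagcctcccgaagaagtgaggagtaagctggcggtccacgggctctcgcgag
Mcoln1 (lysosomal calcium channel), chr8:3500269-3500568, plus strand: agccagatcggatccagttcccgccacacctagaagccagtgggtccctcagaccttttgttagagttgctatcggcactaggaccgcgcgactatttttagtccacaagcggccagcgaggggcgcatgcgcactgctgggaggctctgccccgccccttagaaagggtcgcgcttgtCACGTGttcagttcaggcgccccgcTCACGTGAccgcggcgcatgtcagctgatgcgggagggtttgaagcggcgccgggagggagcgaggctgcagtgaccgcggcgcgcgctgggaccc
Ctsd (cathepsin D), chr7:142387778-142388077, minus strand: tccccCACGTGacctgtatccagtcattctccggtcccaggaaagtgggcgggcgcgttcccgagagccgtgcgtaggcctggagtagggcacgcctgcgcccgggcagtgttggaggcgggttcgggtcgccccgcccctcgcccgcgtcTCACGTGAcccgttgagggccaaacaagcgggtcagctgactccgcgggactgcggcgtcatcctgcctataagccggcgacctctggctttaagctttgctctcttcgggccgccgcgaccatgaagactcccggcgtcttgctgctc
Sqstm1 (p62), chr11:50210771-50211070, minus strand: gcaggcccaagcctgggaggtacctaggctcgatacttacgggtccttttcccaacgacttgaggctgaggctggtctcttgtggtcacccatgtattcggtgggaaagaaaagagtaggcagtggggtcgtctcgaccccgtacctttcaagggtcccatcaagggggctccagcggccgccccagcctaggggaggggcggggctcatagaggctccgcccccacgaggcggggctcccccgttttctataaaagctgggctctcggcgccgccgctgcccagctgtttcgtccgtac
Lamp1 held 4 copies of CACGTG, Mcoln1 and Ctsd held 2 each, 1 of them in the extended form, and the Sqstm1 window held none. Among the other genes with CACGTG were Bnip3, Ctsl, Atg5, Atg7 and Atg14.

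The estimated counts summed to between 20251504 (Lgr5 AL 3) and 87215729 (Hopx CR 1) a library, and the smallest estimated count of any of the 37 genes in a library was 160 (Map1lc3a). The Y-linked transcript Eif2s3y was near 0 TPM in both libraries of isolation 3 and in Hopx CR 1 but at 14.5 TPM in Hopx AL 1, which separates the mice behind isolation 4. Libraries are named below by population, diet and replicate; Hopx replicates 1 and 2 are isolations 4 and 5. Hopx AL 1 stood apart in composition, with 17.8% of its counts in 5 genes against 3.06% to 9.9% in the other 9. Of the markers that define the sorts, Lgr5 mRNA was at 75.0 to 269.9 CPM (estimated counts relative to the TMM-scaled library size) in Lgr5 libraries and 69.3 to 158 CPM in Hopx libraries, and Hopx mRNA at 116 to 154 and 81.9 to 116 CPM. With the diets pooled, the ranges overlapped for both markers. Within each diet Lgr5 mRNA still overlapped, whereas Hopx mRNA was lower in every Hopx library than in any Lgr5 library. Hopx mRNA was at 111 and 105 CPM in Hopx AL against 116 to 133 CPM in Lgr5 AL. Under CR it was at 116 and 81.9 CPM in Hopx libraries against 145 to 154 CPM in Lgr5 libraries. Neither mRNA was higher without overlap in the sort named for it. Markers of other epithelial cells were present in every group: the summed level of 11 Paneth cell markers ran from 18131 to 74180 CPM in Lgr5 libraries and from 73579 to 221036 CPM in Hopx libraries. In such bulk samples, fewer cells of a type and less RNA per cell cannot be told apart.

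Of the 9 most abundant of the 37 mRNAs, 5 were lysosomal (Lamp1, Ctsa, Ctsb, Ctsd and Lamp2). In TPM, the length-normalized unit that allows levels of different genes to be compared, Lamp1 was highest at a mean of 281 over the 10 libraries (range 175 to 354), followed by Gabarap at 237, Becn1 at 173, Ctsa at 165 and Map1lc3b at 160.1. Among the 5 ATG8 proteins, the ubiquitin-like proteins attached to the membrane, Gabarap, Map1lc3b and Gabarapl2 (115 TPM) were far more abundant than Map1lc3a (11.9 TPM) and Gabarapl1 (11.6 TPM). The kinases that start the process were low, with Ulk1 at 11.8 and Ulk2 at 6.58 TPM, and Npc1, which exports cholesterol from the lysosome, was lowest at 4.34 TPM. Neighbours in this order often overlapped: the libraries' range was 10.79 to 30.6 TPM for Atg16l1, 8.49 to 25.7 TPM for Tfeb and 7.65 to 22.1 TPM for Tfe3. On TMM-scaled CPM, the most even genes over the 10 libraries were Map1lc3b, whose highest library was 1.21 times its lowest, Ctsa (1.31 times) and Becn1 (1.33 times). The most variable were Bnip3 (4.93 times), Atg9a (2.69 times), Ctsl (2.66 times) and Ulk1 (2.44 times).

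**Figure D1:**
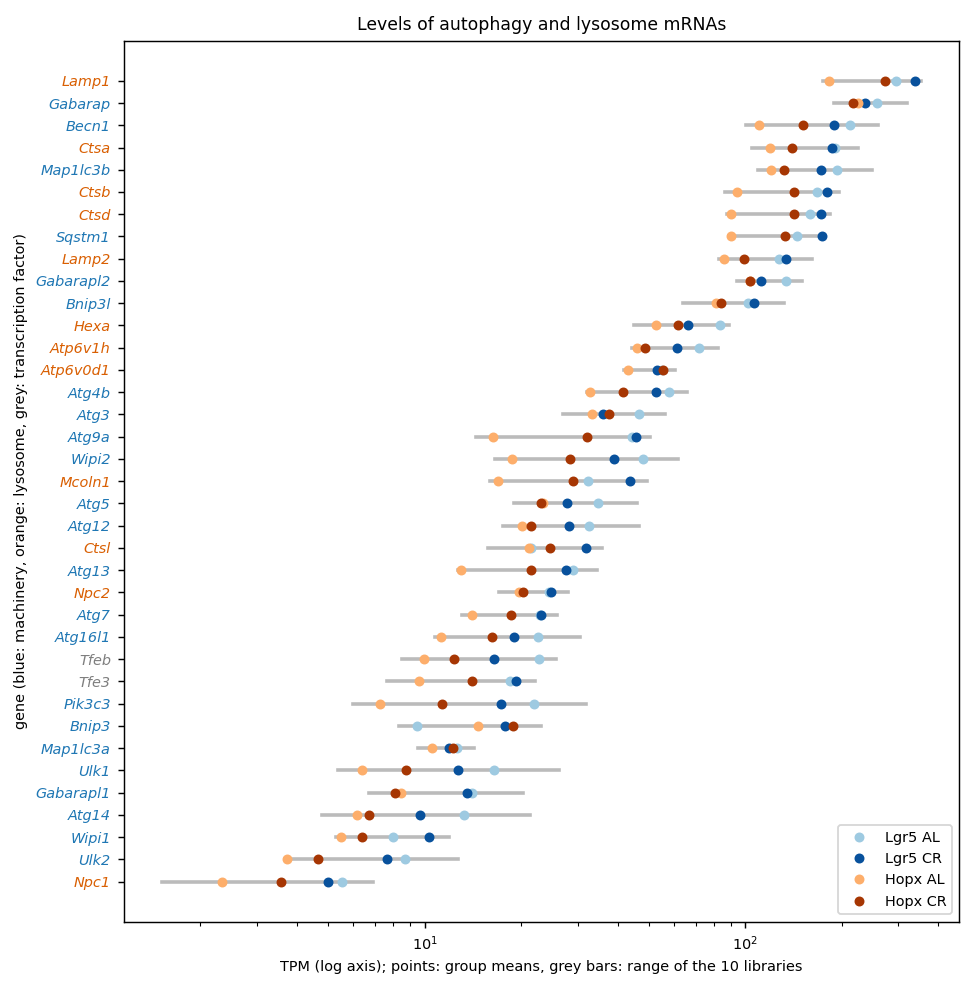
Levels of the 37 mRNAs in TPM on a log axis, ordered by their mean over 10 libraries, with group means as points and the range of the libraries as grey bars. Lamp1 lies at the top (mean 281 TPM) and Npc1 at the bottom (4.34 TPM), and for most genes the Hopx AL mean is the lowest of the 4. On log2(TPM + 1), the median of Hopx over Lgr5 under AL was -0.65 for all genes tested and -0.67 for the 37. On counts the median of the 37 was 0.10.

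In Lgr5 cells, lysosomal mRNAs were higher under CR in 10 of 12 genes, with a median log2 fold change of 0.26, and cargo receptors in 3 of 3. That lysosomal median was 0.06 on log2(TPM + 1), where the median of all genes was -0.15, and 0.16 in a fit with offsets that follow transcript length. The autophagy machinery as a whole was higher in 16 of 23 genes with a median of 0.07, and the median of all 15839 genes was 0.02, of which 51.8% were higher. No single gene among the 37 passed an adjusted p of 0.05 in edgeR's quasi-likelihood test (Benjamini-Hochberg over all genes, as for every adjusted p here), in which 0.0189% of all genes passed. At an unadjusted p under 0.05, 5 of the 37 were higher and 0 lower, against 5.57% and 4.21% of all genes. DESeq2 likewise called 0 of the 37 (smallest adjusted p 0.0611), where it called 2.45% of all genes. The 3 CR libraries all lay above the 3 AL libraries in 9 of the 37, against 7.41% of all genes, and all below them in 0, against 7.49%. On TPM, CR lay above AL without overlap in 3 of the 37 (Sqstm1, Bnip3 and Ctsl; 3% of all genes) and below it in 2 (Tfeb and Hexa; 11.9%).

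Bnip3 is a mitochondrial outer membrane receptor that brings mitochondria to the autophagosome. It was at 10.8, 14.3 and 7.6 CPM in Lgr5 AL libraries 1 to 3 and 24.6, 16.9 and 27.4 CPM in Lgr5 CR libraries 1 to 3. Every CR library was above every AL library, although isolation 2 differed little (14.3 and 16.9 CPM). The log2 fold change was 1.07, SE 0.307, adjusted p 0.273. Its relative Bnip3l, or Nix, which also recruits mitochondria, was at 71.4, 72.8 and 73.7 CPM under AL and 98.6, 79.4 and 90.7 CPM under CR, and its log2 fold change was 0.30, SE 0.138, adjusted p 0.518. On CPM the AL values were nearly equal and all lay below the CR values, whereas on TPM the diets overlapped. Sqstm1 encodes p62, the receptor for ubiquitin-tagged cargo, and was at 234, 178 and 159 CPM under AL and 259, 266 and 255 CPM under CR. The 3 CR libraries were close together while AL ranged widely, and the log2 fold change was 0.45, SE 0.187, adjusted p 0.483. Bnip3 shares 22.0% of its 31-base words with the pseudogene Gm16439 and Bnip3l shares 27.9% with Bnip3l-ps, so the authors' estimated counts may split reads between them. Becn1 overlaps Cntd1 and Lamp1 overlaps Grtp1 on the opposite strand, and the kit does not mark strand. Map1lc3b overlaps the protein-coding gene Gm20388, which was also quantified, over 8400 bases of the same strand. Whether reads were split between them was not tested.

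The mRNAs of proteins of the lysosomal membrane and of lipid export also had higher fitted values under CR, with none past the test. Lamp1, the most abundant of them, was at 563, 464 and 417 CPM in the AL libraries and 649, 611 and 637 CPM in the CR libraries, with a log2 fold change of 0.39, SE 0.178, adjusted p 0.514. Mcoln1, the channel that releases calcium from the lysosome, was at 43.04, 38.95 and 40.3 CPM and 73.2, 54.2 and 65.7 CPM, with a log2 fold change of 0.66, SE 0.248, adjusted p 0.429. For both genes the AL and CR values did not overlap on CPM, whereas on TPM they did. Lamp2, Npc1 and Npc2, the last pair being cholesterol carriers, had log2 fold changes of 0.30, 0.07 and 0.23.

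Of the 5 lysosomal hydrolases, cathepsins B, D and L were higher on CPM in every CR library than in any AL library, as were 7.41% of all genes. On TPM this held for cathepsin L only. Ctsb was at 656, 636 and 554 CPM under AL and 779, 757 and 755 CPM under CR, and its log2 fold change was 0.31, SE 0.152, adjusted p 0.542. Ctsd, an aspartic protease, was at 251.0, 244 and 207 CPM and 284, 291 and 299 CPM, and its log2 fold change was 0.32, SE 0.161, adjusted p 0.555. Cathepsin L had the largest difference of the lysosomal genes: Ctsl was at 33.6, 32.4 and 25.6 CPM and 45.3, 60.6 and 50.4 CPM, and its log2 fold change was 0.77, SE 0.27, adjusted p 0.401. Hexa, a subunit of hexosaminidase, and Ctsa, cathepsin A and the protective protein of other hydrolases, differed by -0.14 and 0.18, both with overlap on CPM. The proton pump genes showed little difference: Atp6v1h, a subunit of the pump's cytosolic part, was at 116, 91.9 and 86.7 CPM and 96.6, 99.8 and 93.6 CPM (log2 fold change -0.02, SE 0.174, adjusted p 0.985). Atp6v0d1, of its membrane part, was at 77.98, 67.5 and 44.3 CPM and 62.9, 72.9 and 69.9 CPM (log2 fold change 0.12, SE 0.216, adjusted p 0.9). In both pump genes the AL libraries spread wider than the CR libraries and enclosed them.

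The initiation and conjugation genes differed less between diets in Lgr5 cells. Ulk1, the initiating kinase, was at 41.8, 65.4 and 81.98 CPM under AL and 52.3, 60.4 and 66.5 CPM under CR, and Atg13, its binding partner, at 70.6, 81.3 and 66.98 CPM and 69.9, 85.6 and 86.2 CPM. Becn1, the scaffold of the lipid kinase complex, was at 192, 189.6 and 176 CPM and 185, 175 and 213 CPM, and its catalytic subunit Pik3c3 at 46.7, 48.8 and 60.2 CPM and 48.4, 47.9 and 50.9 CPM. In these 4 genes the diets overlapped, and the log2 fold changes lay between -0.08 and 0.14. Wipi1, which binds the lipid that PIK3C3 makes, was the exception at 10.7, 12.98 and 15.97 CPM and 20.9, 18.2 and 22.8 CPM. Its values were without overlap on CPM but not on TPM (log2 fold change 0.64, SE 0.234, adjusted p 0.41). Wipi2, its relative, was at 133, 161 and 148 CPM and 121, 149 and 152 CPM, with overlap. Atg9a, a membrane scramblase, was at 138, 94.98 and 85.9 CPM and 131, 130.3 and 115 CPM, again with overlap.

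In the conjugation system, Atg5 was at 60.3, 54.1 and 60.8 CPM under AL and 52.1, 53.8 and 60.1 CPM under CR, and Atg3, the enzyme that hands LC3 to the lipid, at 85.8, 55.8 and 64.1 CPM and 62.7, 48.3 and 72.6 CPM. Both overlapped between diets, and the 6 genes of the system (also Atg4b, Atg7, Atg12 and Atg16l1) had log2 fold changes between -0.16 and 0.19. Map1lc3b, the LC3 form most used as an autophagosome marker, was at 245, 242 and 247 CPM and 247, 256 and 269 CPM, the smallest spread of the 37 genes over the 10 libraries. Gabarapl2 was at 113, 74.5 and 74.1 CPM and 74.1, 93.1 and 83.1 CPM, and Gabarapl1 at 14.3, 17.96 and 20.04 CPM and 22.3, 19.3 and 18.7 CPM. Both overlapped. The 95% interval of the diet difference was -0.22 to 0.37 for Map1lc3b and -0.72 to 0.57 for Ulk1, so a difference of Ulk1 mRNA within those bounds was not resolved by 3 libraries a group. The transcription factor Tfeb was at 31.5, 32.2 and 26.01 CPM and 23.1, 25 and 26.6 CPM (log2 fold change -0.27, SE 0.184, adjusted p 0.678), and Tfe3, of the same family, had a log2 fold change of 0.27.

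**Figure D2:**
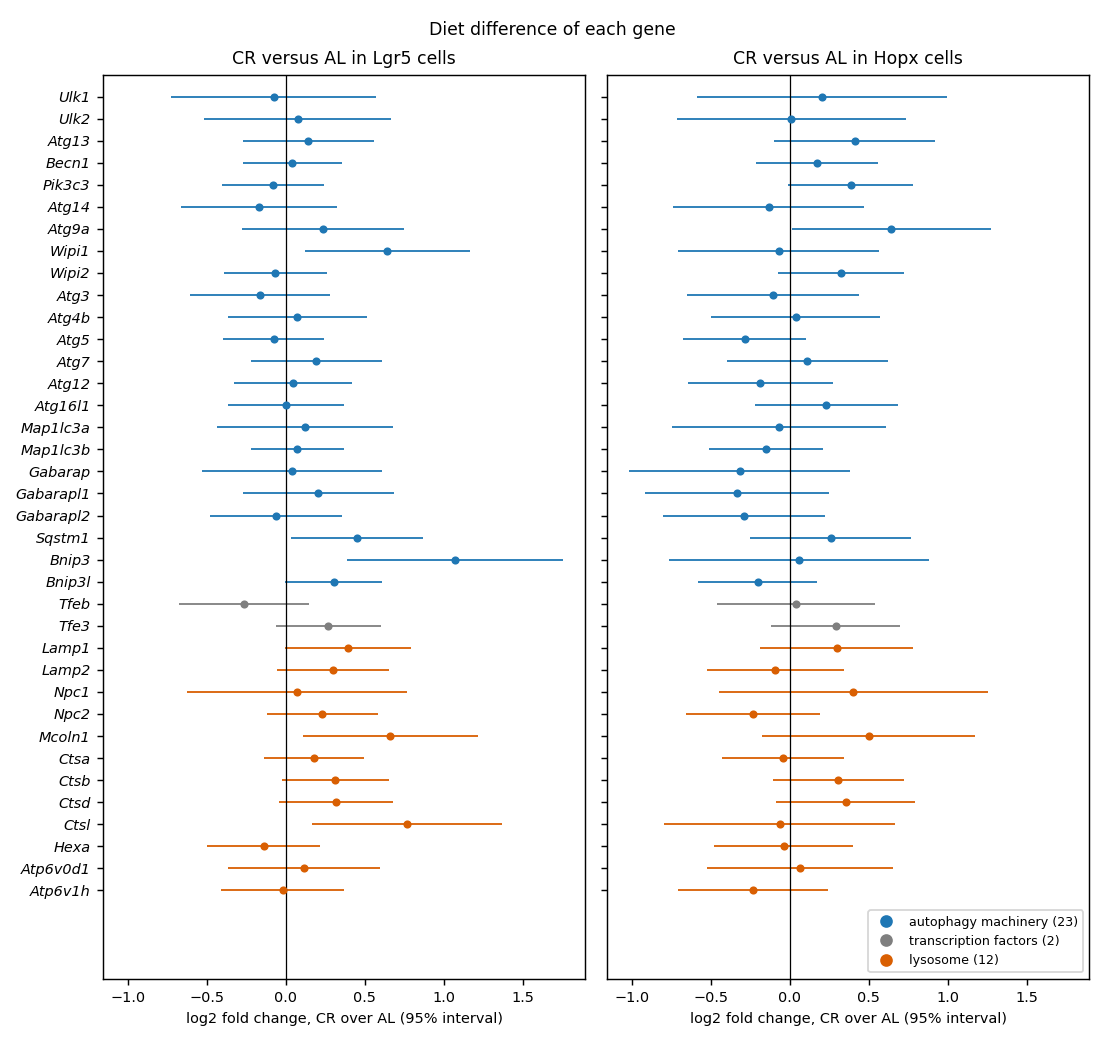
Log2 fold change of CR over AL with its 95% interval for the 37 genes in Lgr5 cells (3 against 3 libraries) and Hopx cells (2 against 2), from edgeR. In Lgr5 cells 10 of 12 lysosomal genes lie above 0, with Bnip3 farthest at 1.07, and in Hopx cells 6 of 12 do.

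In Hopx cells, 20 of 37 genes were higher under CR and 17 lower, with a median log2 fold change of 0.04 against -0.02 for all genes, of which 48.6% were higher. Lysosomal genes were split 6 to 6 (median 0.01) and machinery genes 12 to 11 (median 0.01). None of the 37 passed the adjusted threshold in edgeR, which 0.0126% of all genes did, and DESeq2 called 0 of them (smallest adjusted p 0.424; 0.922% of all genes called). At an unadjusted p under 0.05, 1 gene was higher and 0 lower in edgeR, against 5.41% and 3.11% of all genes. With 2 libraries a group, the diets did not overlap in 7 genes upward and 10 downward, beside 21.5% and 21.1% of all genes. On TPM the split was another, with 20 genes upward and 0 downward, beside 35.6% and 7.25% of all genes. These medians depend on single libraries: the median of the 37 was 0.14 without Hopx AL 1, -0.07 without Hopx AL 2, -0.13 without Hopx CR 1 and 0.10 without Hopx CR 2.

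Atg9a had the smallest p, at 86.8 and 51.5 CPM in Hopx AL libraries 1 and 2 and 109.8 and 106 CPM in Hopx CR libraries 1 and 2 (log2 fold change 0.64, SE 0.282, adjusted p 0.582). Hopx AL 2 was the lowest of the 4 by far, and the diets did not overlap. Pik3c3 followed at 29.6 and 31.3 CPM under AL and 40.5 and 39.1 CPM under CR, with both pairs tight (log2 fold change 0.39, SE 0.177, adjusted p 0.591). Atg13 was at 67.7 and 47.98 CPM and 88.1 and 65.8 CPM, with Hopx AL 1 above Hopx CR 2, and Wipi2 at 104 and 98.5 CPM and 126 and 127 CPM without overlap. Ulk1 had its highest and its lowest Hopx value under CR, at 43.8 and 44.9 CPM under AL and 68.6 and 33.6 CPM under CR. Becn1 was at 177 and 159.8 CPM and 199.9 and 180.1 CPM, a narrow gap, and Wipi1 at 18.8 and 14.4 CPM and 18.5 and 13.2 CPM, with overlap.

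Among the 5 ATG8 genes and Atg3, Atg5 and Atg12 of the conjugation system, the fitted values were lower under CR, with none past the test, while Atg4b, Atg7 and Atg16l1 had log2 fold changes of 0.04, 0.11 and 0.23. Atg5 was at 65.96 and 72.1 CPM under AL and 50.6 and 62.6 CPM under CR, and Atg3 at 89.3 and 81.2 CPM and 78.3 and 79.9 CPM. Map1lc3b was at 285 and 255 CPM and 252 and 236 CPM, Gabarapl2 at 123 and 109.7 CPM and 95.7 and 94.2 CPM, and Gabarapl1 at 18.7 and 18.8 CPM and 17.6 and 12.1 CPM. On CPM, all 5 of these genes were lower in both CR libraries than in either AL library, by small amounts for Atg3 and Map1lc3b. On TPM none of them was: Atg3 was higher without overlap, at 29.98 and 36.5 TPM under AL and 36.6 and 38.5 TPM under CR, and the other 4 overlapped between diets. In isolation 5 all 5 ATG8 genes were lower on CPM in the CR library, and in isolation 4 it was 4 of 5. The largest of these fold changes, -0.33 for Gabarapl1, had an interval of -0.92 to 0.25.

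Cargo receptors and lysosomal genes in Hopx cells mostly overlapped between diets. Sqstm1 was at 239 and 174 CPM under AL and 263 and 230.3 CPM under CR, Bnip3 at 34.2 and 23.98 CPM and 37.5 and 23.02 CPM, and Bnip3l at 93.7 and 107 CPM and 90.5 and 83.7 CPM. Of these only Bnip3l was without overlap, and it was lower under CR. Lamp1 was at 569 and 460.4 CPM and 695 and 568 CPM, and Mcoln1 at 41.2 and 34.6 CPM and 72.4 and 34.6 CPM. Hopx CR 1 gave the highest Mcoln1 value of the 4 and Hopx CR 2 equalled an AL library. Ctsb was at 638 and 566 CPM and 762 and 728 CPM, Ctsd at 258 and 205 CPM and 327 and 264 CPM, and both were higher in each CR library than in either AL library. The lysosomal genes Npc2 and Hexa went the other way, lower in each CR library than in either AL library, by a small amount for Hexa. Ctsl was at 57.3 and 46.8 CPM and 68.3 and 31.1 CPM, with CR giving both extremes. Tfeb was at 22.4 and 22.6 CPM and 19.2 and 26.9 CPM, Atp6v1h at 132 and 90.98 CPM and 95.6 and 93.6 CPM, and Atp6v0d1 at 98.9 and 70.1 CPM and 91.3 and 85.3 CPM. Hopx AL 1 gave the highest value of both pump genes.

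**Figure D3:**
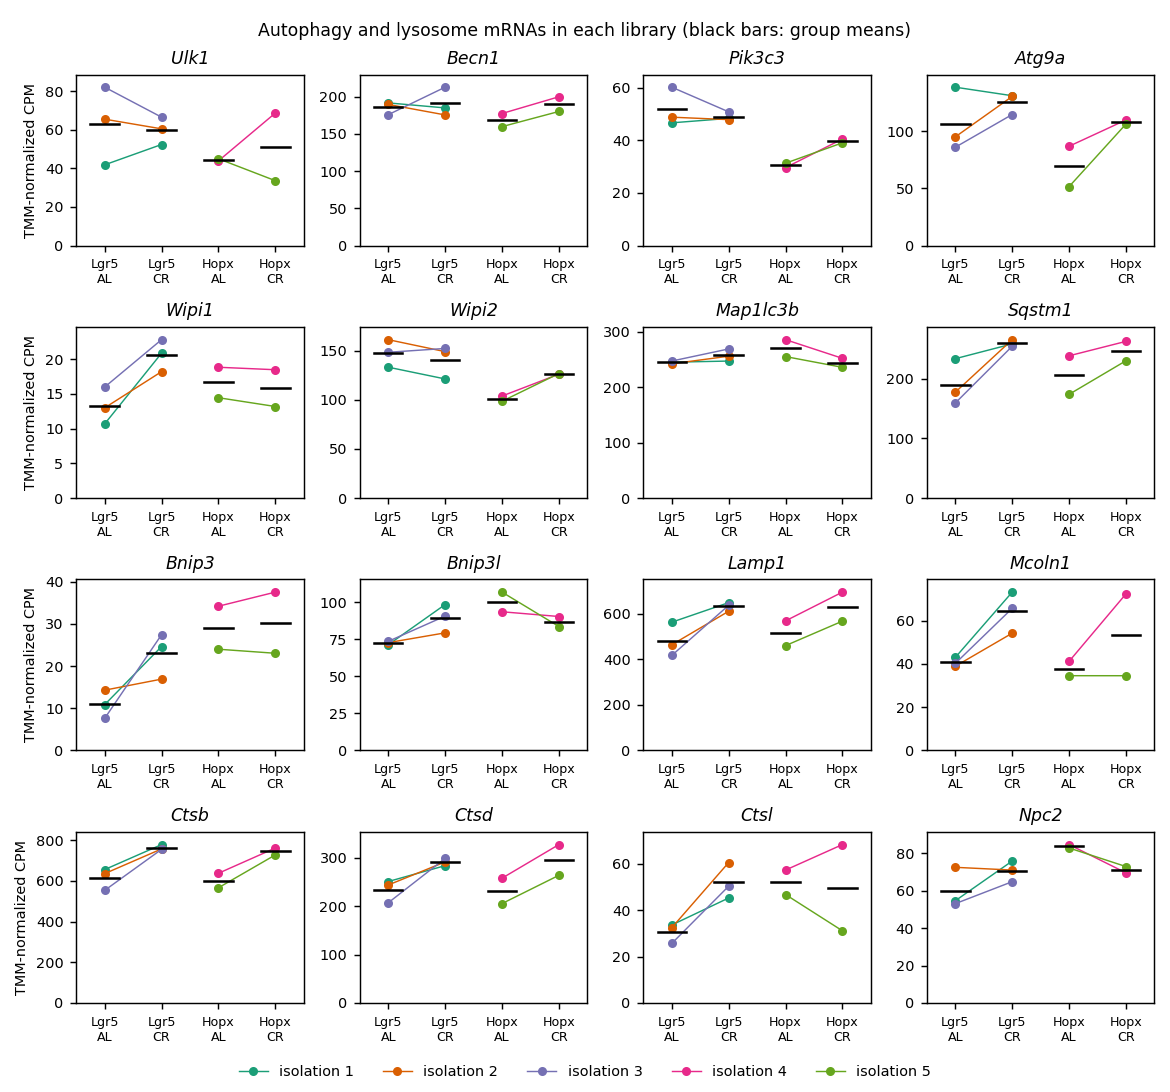
TMM-normalized CPM of 16 genes in each of the 10 libraries, by group, with lines joining the AL and CR library of an isolation and black bars for group means; axes start at 0. Bnip3 runs from 7.6 CPM in Lgr5 AL 3 to 37.5 CPM in Hopx CR 1, while Map1lc3b keeps within 1.21 times.

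The difference between the 2 diet effects was tested as an interaction. None of the 37 passed the adjusted threshold (0.00631% of all genes did; DESeq2 called 0 of the 37, smallest adjusted p 0.747, and 0.221% of all genes), and at an unadjusted p under 0.05, 0 genes were higher and 1 lower, against 2.83% and 1.89% of all genes. That gene was Bnip3l, whose Hopx effect minus Lgr5 effect was -0.51, SE 0.218, adjusted p 0.9999, on the log2 scale. Bnip3 followed at -1.01, SE 0.479, adjusted p 0.9999, Pik3c3 at 0.47, SE 0.228, adjusted p 0.9999 and Ctsl at -0.83, SE 0.424, adjusted p 0.9999. A diet effect that was particular to Lgr5 or to Hopx cells was therefore not shown for any of these genes. The difference was above 0 in 14 of the 37, against 46.5% of all genes, and its median was -0.08 against -0.04 for all genes. The median was 0.09 without Hopx AL 1.

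Within isolations the 2 classes of genes can be compared library by library. The median log2 ratio of CR over AL for lysosomal genes was 0.19, 0.26 and 0.39 in isolations 1, 2 and 3 of Lgr5 cells and 0.14 and 0.01 in isolations 4 and 5 of Hopx cells. For the machinery it was 0.01, 0.11, 0.16, -0.03 and -0.06 in the same order. The lysosomal median was thus above the machinery median in each of the 5 isolations, with the smallest gap in isolation 5. The isolations of a population share no animals, and no test was made of the class medians, which were compared with these results in view. Lysosomal genes were higher under CR in 7, 10, 12, 7 and 6 of 12 genes in the 5 isolations, and machinery genes in 12, 15, 15, 11 and 10 of 23. Over all genes tested the share was 49.1% to 53.3%. Summed over the 12 genes, lysosomal mRNA was 1963 to 2440.0 CPM in Lgr5 AL and 2669 to 2726 CPM in Lgr5 CR, and 2173 to 2552 and 2466 to 2839 CPM in Hopx AL and CR. Summed machinery mRNA was 1726 to 1969 CPM in Lgr5 AL and 1908 to 1997 CPM in Lgr5 CR, and 1757 to 1977 and 1841 to 1971 CPM in the Hopx groups. Of these CPM sums, only the lysosomal sums in Lgr5 cells did not overlap between diets. On the TPM scale the lysosomal sums did overlap in Lgr5 cells, at 1098 to 1421 under AL and 1239.7 to 1343 under CR. In Hopx cells it was the reverse: on TPM both the lysosomal and the machinery sums were higher in each CR library than in either AL library. On that scale 35.6% of all genes were likewise higher without overlap in Hopx CR. Which populations differed by diet in these sums thus depended on the scale.

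**Figure D4:**
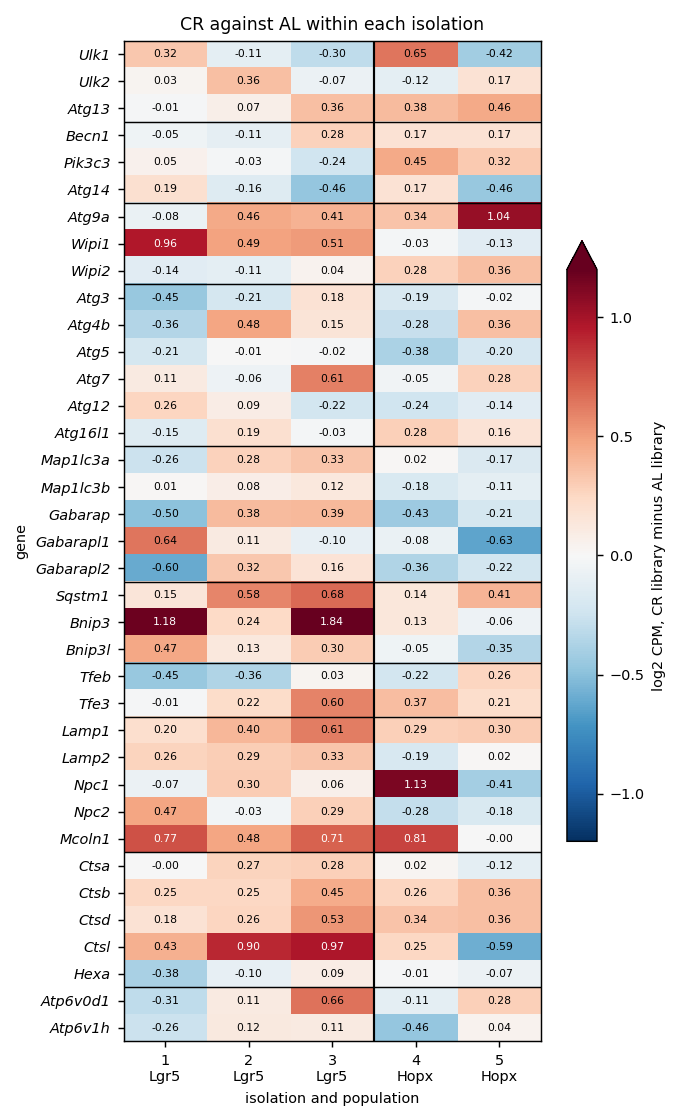
Log2 ratio of CR over AL for each gene (rows, grouped by role) in each isolation (columns; 1 to 3 are Lgr5 cells, 4 and 5 Hopx cells), with red for higher under CR. Sqstm1, Lamp1, Ctsb and Ctsd are red in all 5 columns (10.8% of the 37, beside 8.74% of all genes tested). Atg5 is blue in all 5 (2.7%, beside 7.8%).

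Fitted over the 5 isolations with population as a term, 26 of the 37 genes were higher under CR and 11 lower (median log2 fold change 0.09, all genes 0.00, of which 50.1% were higher). Lysosomal genes were higher in 10 of 12 (median 0.17) and machinery genes in 15 of 23 (median 0.06). None of the 37 passed the adjusted threshold, which 0.133% of all genes did, and DESeq2 called 0 of them where it called 4.46% of all genes. At an unadjusted p under 0.05, 8 genes were higher and 0 lower, against 8.18% and 6.14% of all genes. These were Mcoln1 (0.60, SE 0.184, adjusted p 0.203), Ctsd (0.33, SE 0.12, adjusted p 0.257), Ctsb (0.31, SE 0.113, adjusted p 0.259), Lamp1 (0.35, SE 0.133, adjusted p 0.268), Sqstm1 (0.37, SE 0.142, adjusted p 0.274), Tfe3 (0.28), Bnip3 (0.66) and Atg9a (0.40), all as log2 fold changes. The CR library was higher in all 5 isolations in 4 of 37 genes (Sqstm1, Lamp1, Ctsb and Ctsd), against 8.74% of all genes, and lower in all 5 in 1 gene (Atg5), against 7.8%. Mcoln1 was higher in 4 of 5 isolations and at 34.6 CPM in both libraries of isolation 5.

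Other genes of the pathways were taken from lists that do not overlap with the 37. Over the 5 isolations, 28 of 35 other autophagy genes were higher under CR (50.1% of all genes were), 7 of them and 0 of the lower ones at an unadjusted p under 0.05 (8.18% and 6.14% of all genes), and 0 passed the adjusted threshold (0.133% of all genes). The smallest p values belonged to Atg2a, a lipid transfer protein (0.54), Pink1, the kinase that marks damaged mitochondria (0.61), Plekhm1, which tethers autophagosomes to lysosomes (0.56), and Zfyve1 (0.53), with adjusted p from 0.0863 to 0.181. Of 54 other lysosomal genes tested, 44 were higher, with 13 higher and 1 lower at an unadjusted p under 0.05 and 0 past the adjusted threshold. They included the sialidase Neu1 (0.50), the mannose 6-phosphate receptor Igf2r (0.60), Scarb2 (0.44) and the acid lipase Lipa (1.07). Of 14 other proton pump genes, 6 were higher and 0 passed, with Atp6v0a2 (0.39) and Atp6v0a1 (0.49) at the smallest p. In Lgr5 cells alone the 3 lists were higher in 28 of 35, 44 of 54 and 10 of 14 genes, where 51.8% of all genes were higher, and in Hopx cells alone in 24 of 35, 34 of 54 and 5 of 14, where 48.6% were.

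Levels of mature cell markers differed between diets. All 15 enterocyte markers were higher under CR in both populations, with summed levels of 5677 to 28374 CPM in Lgr5 AL, 21016 to 28517 CPM in Lgr5 CR, 8659.8 to 12621 CPM in Hopx AL and 19517 to 22217 CPM in Hopx CR. In isolation 1, 8 of the 15 were higher and the lysosomal median ratio was 0.19, and in isolations 2 and 3 all 15 were higher and it was 0.26 and 0.39. In isolation 4, 13 of the 15 were higher and the lysosomal median was 0.14, and in isolation 5 all 15 were higher and it was 0.01. The median ratio of the enterocyte markers was 0.11, 1.13, 2.12, 0.74 and 1.45 in isolations 1 to 5. All 10 tuft cell markers were lower in Lgr5 CR, with sums of 252 to 596 CPM under AL and 92.3 to 139.6 CPM under CR. Of 11 macrophage and immune cell markers, 4 were higher in Lgr5 CR and 1 in Hopx CR. Their sums, most of which were Cd74, were 1901 to 4911 CPM in Lgr5 AL and 3090 to 3953 CPM in Lgr5 CR. The list also holds T cell genes such as Cd3e. Of its genes that are expressed in macrophages, Cd68, Adgre1 and Csf1r reached at most 1.29, 0.21 and 4.56 CPM, and Lyz2 and Itgam reached 90.2 and 16.3 CPM. The count and the sums therefore do not single out macrophages, the cells of this list known for abundant lysosomes. Of the remaining lists, 7 of 11 Paneth, 4 of 7 goblet, 6 of 10 enteroendocrine and 2 of 6 fibroblast and endothelial markers were higher in Lgr5 CR, against 2, 4, 0 and 3 in Hopx CR. Of all 12 immune markers, 7 reached 1 CPM in each of the 10 libraries, among them Ptprc (1.83 to 11.7 CPM), Lyz2 (4.63 to 90.2 CPM), Itgam (5.16 to 16.3 CPM) and Cd74 (1859 to 4771 CPM), and 1, Adgre1, was below 1 CPM in each. Of all 8 fibroblast and endothelial markers, Pecam1 (3.09 to 7.86 CPM) and Vim (3.22 to 40.3 CPM) reached 1 CPM in each library and Col1a1, Dcn, Pdgfra and Cdh5 in none, while Col1a2 and Col3a1 reached at most 1.04 and 1.16 CPM. The part of these cells in the autophagy and lysosome values was not tested.

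Under AL, Pik3c3 and Bnip3 had the smallest p values between Hopx and Lgr5 cells, with neither past the adjusted threshold in edgeR. Of the 37 genes, 21 were higher in Hopx cells and 16 lower (median 0.10, all genes 0.04, of which 52.4% were higher), and none passed the adjusted threshold in edgeR (0.0189% of all genes did). At an unadjusted p under 0.05, 4 were higher (Bnip3, Bnip3l, Npc2 and Ctsl) and 3 lower (Pik3c3, Wipi2 and Atg9a), against 9.27% and 8.42% of all genes. Pik3c3 in Hopx AL was below every Lgr5 AL library (log2 fold change -0.77, SE 0.165, adjusted p 0.0839), as was Wipi2 (-0.55, SE 0.165, adjusted p 0.144). Bnip3 in Hopx AL was above every Lgr5 AL library, 2.66-fold by the fitted mean (1.41, SE 0.334, adjusted p 0.0967), and so was Bnip3l (0.47, SE 0.153, adjusted p 0.164). DESeq2 called 3 of the 37, against 8.11% of all genes: Pik3c3 (log2 fold change -0.81, adjusted p 0.000186), Bnip3 (1.37, adjusted p 0.00604) and Wipi2 (-0.58, adjusted p 0.0154). The groups did not overlap in 8 genes upward and 3 downward, against 18.8% and 15.8% of all genes. Without Hopx AL 1 the median of the 37 turned to -0.10.

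The sign of most of these differences depends on the scale. On log2(TPM + 1), the median of all genes was -0.65 for Hopx over Lgr5 under AL and that of the 37 genes -0.67, with 1 higher and 36 lower; limma called 19 of the 37, all lower in Hopx cells, where it called 31.7% of all genes lower and 0.673% higher. Relative to all genes, then, the 37 lay 0.02 lower on TPM and 0.07 higher on counts. Bnip3 was at 8.35, 11.3 and 8.83 TPM in Lgr5 AL and 15.2 and 14.3 TPM in Hopx AL, and so had a higher mean in Hopx cells on both scales. Bnip3l, higher on CPM, was at 84.6, 88.97 and 132 TPM and 64.1 and 97.96 TPM. Pik3c3 was at 16.4, 17.7 and 31.8 TPM and 6.0 and 8.49 TPM, lower on both scales.

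Under CR, Pik3c3 again had the smallest p between the populations. Of the 37, 11 were higher in Hopx cells and 26 lower (median -0.07, all genes 0.00, of which 50.2% were higher). None was past the adjusted threshold (0.0189% of all genes), 0 were higher and 0 lower at an unadjusted p under 0.05 (3.31% and 2.99% of all genes), and 0 were called by DESeq2 (1.1% of all genes). The smallest p values were those of Pik3c3 (log2 fold change -0.30, SE 0.162, adjusted p 0.854), Gabarapl1 (-0.43), Atg3 (0.37) and Atp6v0d1 (0.36). Without Hopx CR 1, 4 genes were lower at an unadjusted p under 0.05. The populations under CR did not overlap upward in 3 genes and downward in 3, against 11.7% and 11.4% of all genes. Bnip3, 2.66-fold higher in Hopx cells under AL, had a fold change of 1.32 under CR, and the change of this difference with diet is the interaction given above, which did not pass.

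Transcript length moved with the population differences. Lengths were taken as the estimated count per TPM of each gene relative to the median gene. Under AL, Pearson's r across the 37 genes between log length and the Hopx over Lgr5 log2 fold change was -0.61 (all 15839 genes -0.17), and under CR -0.51 (all genes -0.06); genes share libraries and are not independent. Tested genes were divided into 3 classes of equal size by length. Of the 11 genes in the longest class, 10 were lower in Hopx cells under AL, with a median of -0.35 against -0.14 for all genes of that class. Of the 9 in the shortest class, 7 were higher, with a median of 0.42 against 0.24. Pik3c3, Wipi2, Atg9a and Ulk1 are among the longer, and Gabarap, Gabarapl2 and Map1lc3a among the shorter. For the diet effect in Hopx cells r was 0.48 (all genes 0.19) and in Lgr5 cells -0.12 (all genes 0.08). Paneth cell markers also moved with the population difference, since all 11 were higher in Hopx AL, and so were 13 of 14 other proton pump genes and 10 of 10 enteroendocrine markers. The part of length and of these cells in the differences was not tested beyond an edgeR fit with offsets that follow length, in which none of the 37 was called and the smallest adjusted p under AL was 0.085.

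**Figure D5:**
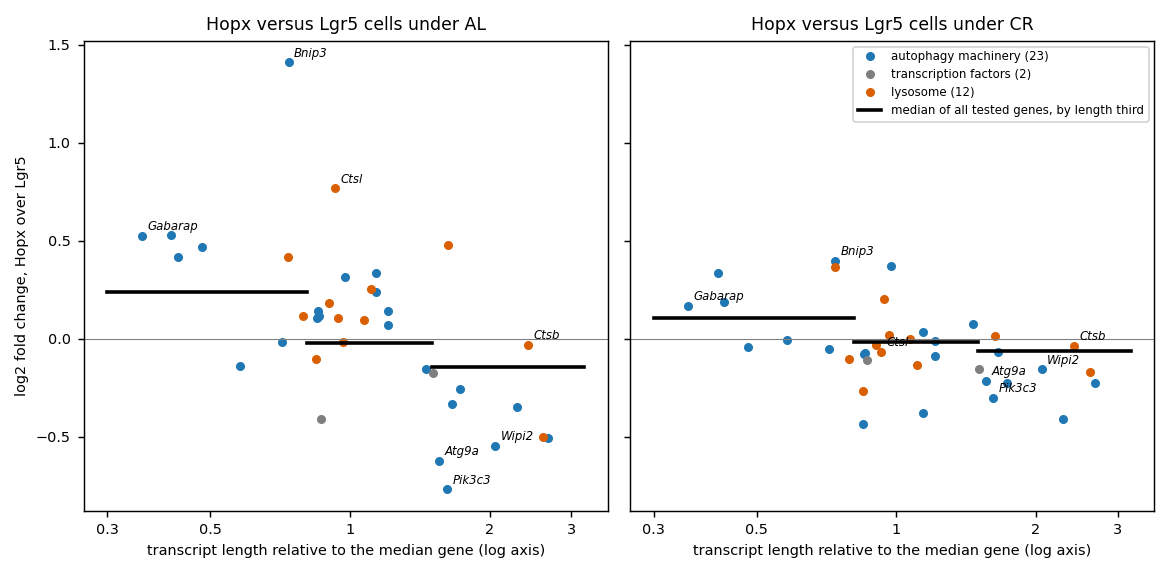
Log2 fold change of Hopx over Lgr5 cells against transcript length relative to the median gene (log axis) for the 37 genes, under AL and CR, with black lines for the median of all tested genes in each of 3 length classes. Shorter transcripts lie higher under AL (class medians of all genes 0.24, -0.02 and -0.14), and Bnip3 lies apart at 1.41.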

How the data were processed

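Libraries were quantified with kallisto, per the submitters' processing notes, which also name edgeR and the human build GRCh38; no version is given, and the gene symbols in the tables are those of mouse. Estimated counts and TPM per gene were deposited as 2 tables, each with 10 library columns. Groups and replicate numbers were taken from the labels, and the isolations were numbered here from population and replicate. Here, estimated counts were rounded and filtered with filterByExpr (minimum count 10), scaled by TMM and tested with edgeR 4.0.16 (R 4.3.3) in a fit of 4 group means over the 10 libraries, or of population and diet for the 5 isolations together. P-values were adjusted by Benjamini-Hochberg over all 15839 genes tested. CPM are TMM-scaled, and log2 CPM use a prior count of 2.

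Alternatives were DESeq2 1.42.0, RLE scaling, no filter, limma 3.58.1 on log2(TPM + 1) for genes with a mean TPM of at least 1, the isolation as a block, and each library left out. A fit with offsets that follow length and one without isolation 4 were added after seeing the data. Counts were simulated for CR against AL in Lgr5 cells (15839 genes, 200 changed by 2 on the log2 scale). On these, edgeR recovered 200 and made 11 false calls, and DESeq2 recovered 200 with 28 false calls. The genes described here had smaller log2 fold changes in that comparison, with a median size of 0.16 and a largest value of 1.07. The recovery therefore does not show whether differences of that size would be found. The labels give the AL and CR library of a pair the same replicate number within a population, which is read here as a shared isolation of different animals. Deviations of same-numbered libraries from their group means correlated at 0.08, 0.17 and 0.02 in isolations 1 to 3. Differently numbered Lgr5 libraries correlated at -0.207 to 0.101. In isolations 4 and 5 the value was 0.03, which is a single result, since the deviations of 2 libraries from their mean mirror each other.

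The genes and lists were chosen with earlier results of these data known. Values in every library are given for genes past the adjusted threshold, the 4 genes with the smallest p in each comparison, and 14 fixed genes (Ulk1, Becn1, Atg5, Map1lc3b, Gabarapl2, Sqstm1, Bnip3, Bnip3l, Tfeb, Lamp1, Ctsb, Ctsd, Ctsl and Atp6v1h); genes of other lists are named by smallest p, up to 4 a list. Libraries of a group come from different animals, per the design text. Groups held 2 or 3 libraries, and the coefficient of biological variation was 0.389.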

Additional observations from a re-analysis of the deposited data

How the results depend on the processing

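No gene of the 37 passed an adjusted p of 0.05 in any of the 6 comparisons by edgeR, RLE scaling, the fit with offsets that follow length, the fit without isolation 4, or with any 1 library left out. For Hopx against Lgr5 cells under AL, DESeq2 called 3, no filter on low counts called 1 (Bnip3, 1.44 on the log2 scale, adjusted p 0.0493), and limma on log2(TPM + 1) called 19. On log2(TPM + 1) the median of the 37 genes was -0.081 for diet in Lgr5 cells, 0.28 for diet in Hopx cells, 0.37 for the interaction, -0.67 for the populations under AL and -0.36 under CR, and the median of all genes moved alike, to -0.15, 0.26, 0.40, -0.65 and -0.26. Under AL, nearly all of the genes that were higher in Hopx cells on counts were lower on that scale. Among them were Map1lc3b (-0.65), Sqstm1 (-0.67), Lamp1 (-0.69) and Atp6v1h (-0.61).

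Offsets that follow length gave a median of 0.065 for diet in Hopx cells. Without isolation 4 the medians were 0.011 for diet in Hopx cells, -0.10 for the populations under AL and -0.14 under CR. With 1 library left out at a time, the median ran from 0.08 to 0.18 for diet in Lgr5 cells and from 0.06 to 0.12 over the 5 isolations. It ran from -0.13 to 0.14 for diet in Hopx cells, from -0.25 to 0.086 for the interaction, from -0.10 to 0.16 for the populations under AL and from -0.14 to -0.00065 under CR. The causes of these moves were not tested. The number of genes among the 37 called was 0 in each of these fits.

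With the isolation as a replicate block, 0 of the 37 genes were called for diet and no call changed. The median was 0.12 in Lgr5 cells, 0.03 in Hopx cells, -0.10 for the interaction and 0.09 over the 5 isolations. Over all genes, the block called 0 genes in each of the first 3 comparisons and 47 over the 5 isolations, against 3, 2, 1 and 21 without it. No block could be fitted between populations, since each isolation holds 1 population. Libraries held 20251504 to 87215729 estimated counts, and how far that depth limits the diet effects was not tested.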
